A study of Mus musculus with 4 samples.

Results

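Antigen-presenting cells pass signals to T cells and to other myeloid cells through a small set of surface proteins, and the mRNAs of 10 of these costimulatory and checkpoint molecules were followed here. The 10 genes, *Icosl*, *Cd40*, *Cd80*, *Cd86*, *Cd83*, *Cd274*, *Pdcd1lg2*, *Cd200r1*, *Sirpa* and *Cd47*, were chosen by name for their function and found by gene symbol among the 55356 genes of the expression table. RNA was sequenced from immortalized bone marrow-derived macrophages (BMDMs) of *MK2*-KO mice, which lack the p38-activated kinase MK2 encoded by *Mapkapk2*. Into these cells either an *MK2* vector (i*MK2*-KO +*MK2*, called wild type in the labels) or the empty *GFP* vector (i*MK2*-KO +*GFP*) had been introduced, hereafter +*MK2* and +*GFP* cells, and each line was left untreated (UT) or treated with murine IL-1α at 5 ng/ml for 1 h. This gave 4 libraries, 1 per condition, and the study asks how MK2 influences basal and IL-1α-dependent inflammatory signaling.

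The endogenous *MK2* knockout is shared by both lines, so that the +*MK2* cells carry MK2 only from the retroviral vector, which also carries GFP. Each line is a single transduced population sorted for GFP, and a difference between the lines cannot be told apart from the presence of MK2. With 1 library per condition, no test between conditions was possible. The values are normalized counts, and each log2 ratio of 2 libraries was calculated after adding a pseudocount of 1. The ratios are given with a 95% exact (Clopper-Pearson) counting interval, in which the normalized count stands for the number of reads. Counting error is all that the intervals, and the floor of 3 counts set for genes at 0, cover, and variation between cultures is not included. A gene was called higher or lower when it differed by at least 2-fold and its interval excluded 0, among the 12483 genes with a mean of at least 10 over the 4 libraries. This mean was reached by 9 of 10 members, and *Cd40* with a mean of 2.5 did not. *Cd83* passed only through its values in +*MK2* cells. All comparisons share libraries with each other and are therefore not independent.

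T cell activation requires a costimulatory signal besides recognition of antigen. CD80 and CD86 bind CD28 and CTLA-4 on T cells, ICOSL binds ICOS, and CD40 receives the CD40L signal that T cells return to the presenting cell. PD-L1 (*Cd274*) and PD-L2 (*Pdcd1lg2*) restrain T cells through PD-1. CD200R1 and SIRPα are receptors that dampen the myeloid cell itself, and CD47 is the ligand of SIRPα and protects cells from phagocytosis. In macrophages, several of these genes are induced by inflammatory stimuli and NF-κB, and CD40 is a classical activator of the non-canonical NF-κB pathway.

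The sums of normalized counts were close to each other, between 24891906 and 25733071, and 17840 to 18152 genes were detected per library. *Mapkapk2* reached 38357 and 38141 in untreated and IL-1α-treated +*MK2* cells against 561 and 1585 in +*GFP* cells, in accordance with the labels. All 10 macrophage markers examined passed the mean of 10, and their sums lay between 119642 and 134723. The markers *Csf1r* (20290 to 27561) and *Lyz2* (59858 to 64591) were abundant in all libraries. The 9 dendritic cell markers summed to 61 to 139, with *Flt3*, *Ccr7*, *Cd209a* and *Kit* at 0 throughout. *Zbtb46* (18 to 115) and *Itgax* (13 to 53) were the only dendritic cell markers that passed the mean of 10. The 8 lymphocyte markers summed to 1 to 9, and all 6 fibroblast markers were at 0. As the libraries come from bulk cultures, fewer cells expressing a gene and less RNA per cell cannot be told apart.

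The members covered a wide range of levels. Scaled to exon length, *Sirpa* was the most abundant member, with 3614 to 3906 normalized counts per kb, above 97.7 to 97.9% of the tested genes. *Cd86* followed with 267 to 288 per kb, and *Cd47* with 188 to 221 and *Cd200r1* with 122 to 231 overlapped in their ranges. *Cd80* (44.0 to 74.0), *Cd274* (41.7 to 91.4) and *Icosl* (37.4 to 273) lay lower, and their order depended on the library. *Pdcd1lg2* (6.63 to 10.2), *Cd83* (0 to 10.1) and *Cd40* (0 to 2.94 per kb) were at the lower end. *Sirpa* alone took 80.4 to 84.2% of the summed normalized counts of the 10 members. Of the 10 members, 5 had their highest value in IL-1α-treated +*GFP* cells, 3 in untreated +*MK2* cells, and 1 in each of the other conditions. The share of all genes that were highest in each library was not determined, so this count is no result about the members. For *Sirpa* it rests on 19181 against 19158 in IL-1α-treated +*MK2* cells. This order reversed when the libraries were rescaled by total, TMM or *Gapdh*.

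**Figure D1:**
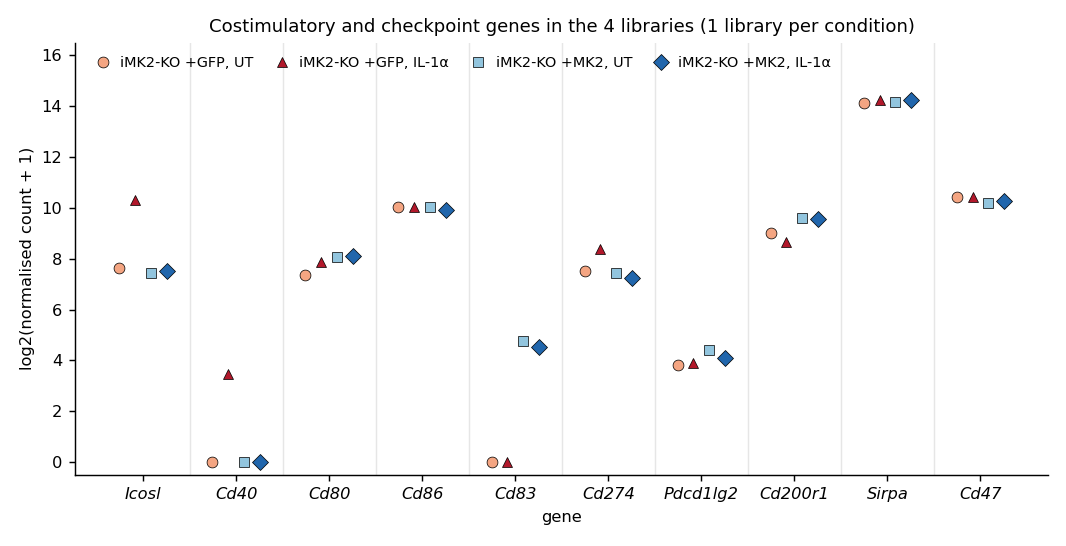
Levels of the 10 genes in the 4 libraries, as log2 of the normalized count plus 1 on the vertical axis, with 1 symbol per library and no replicates. *Icosl* and *Cd274* stand out in the IL-1α-treated +*GFP* library (1260 and 331), *Cd83* is at 0 in both +*GFP* libraries, and *Sirpa*, *Cd86* and *Cd47* are almost level.

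In untreated cells, the counting interval lay above 0 for *Cd47* and below 0 for *Cd80*, *Cd83*, *Cd200r1* and *Sirpa*. The share of all tested genes with such an interval was not determined, so these intervals are no result about the members. None of the members was called higher in +*GFP* than in +*MK2* cells, against 3.28% of all tested genes. Of the 9, 1 was called lower (*Cd83*), against 5.01% of all tested genes. These counts are near the shares over all genes and are no result about the members. The median log2 ratio of the 9 members was -0.047, beside 0.021 for all tested genes. After IL-1α, 2 of 9 were called higher in +*GFP* cells (*Icosl* and *Cd274*), against a background of 3.92%, and 1 was called lower (*Cd83* again), against 5.2%. The median was 0.0017, beside 0.031 for all tested genes.

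The IL-1α treatment itself raised 1 of 9 members in +*GFP* cells (*Icosl*), where 1.79% of all tested genes were called higher, and lowered none, where 1.11% were called lower. In +*MK2* cells, 0 members were called in either direction, against a background of 0.609% higher and 0.745% lower. In this line only the interval of *Sirpa* excluded 0, and the share of all genes with such an interval was not determined. All 9 changed by less than 1.5-fold. At a threshold of 1.5-fold, 1.16% of all tested genes were called higher and 1.41% lower in this line. *Cd83* gives no response in +*GFP* cells, where it is at 0. Of the other 8 tested members, 6 had a higher (more positive) log2 ratio with IL-1α in +*GFP* than in +*MK2* cells. The median of this signed difference was 0.25. For all genes this difference had a median of 0.015, and 6651 of 12483 had the higher ratio in +*GFP* cells.

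**Figure D2:**
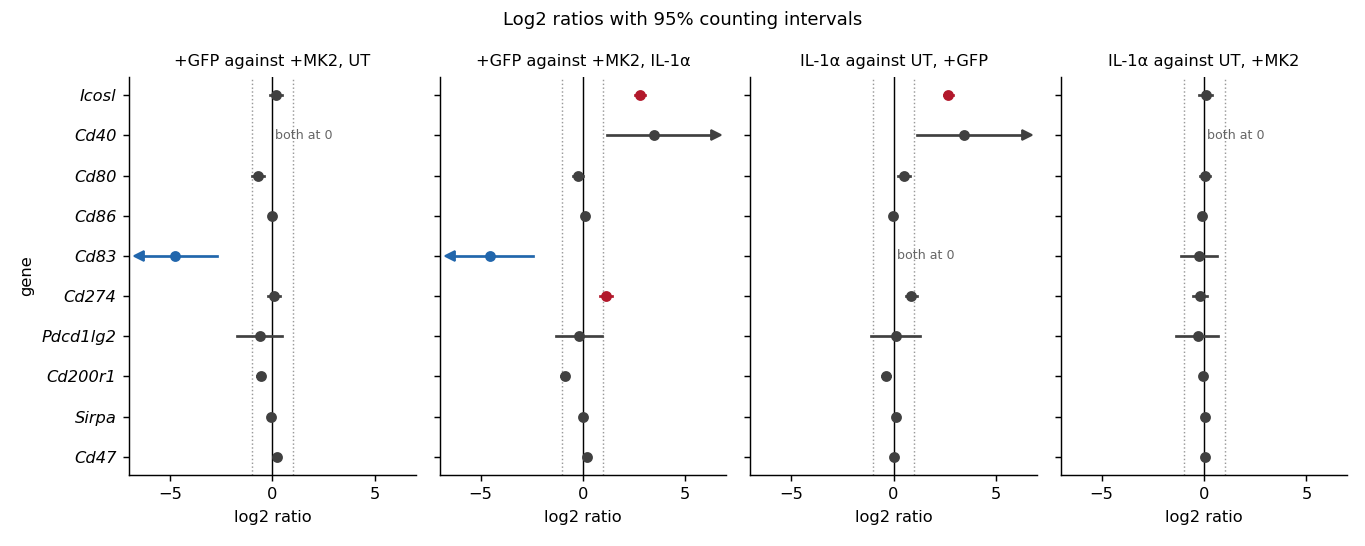
Log2 ratios of the 10 genes (horizontal axes) in the 4 comparisons, with 95% counting intervals as bars, arrows for intervals without an end, and dotted lines at 2-fold. Red marks genes called higher and blue genes called lower. *Cd40* did not reach the minimum mean and was not called. *Cd83* is called lower in both comparisons of the lines, *Icosl* and *Cd274* are called higher between the lines only after IL-1α, and no gene is called after IL-1α in +*MK2* cells.

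*Icosl*, the ligand of the T cell receptor ICOS, changed most after IL-1α. Its normalized count was 196 in untreated and 1260 in IL-1α-treated +*GFP* cells, and 173 and 183 in +*MK2* cells. All libraries but that of the IL-1α-treated +*GFP* cells were on a similar level. *Icosl* thus rose 6.40-fold with IL-1α in +*GFP* cells (log2 2.68, interval 2.47 to 2.91), the 51st highest ratio of 12483 genes. In +*MK2* cells the log2 ratio was 0.08 (-0.23 to 0.39). The responses differed by 2.60 on the log2 scale. After IL-1α the mRNA was 6.85-fold higher in +*GFP* than in +*MK2* cells (log2 2.78, 2.56 to 3.02), whereas the untreated lines gave a ratio of 0.18 (-0.12 to 0.48). Relative to other genes, the level of *Icosl* per kb moved from above 24.1% to above 63.1% of the tested genes with IL-1α in +*GFP* cells, and stayed at 22.0 and 22.7% in +*MK2* cells.

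*Icosl* is located on chr10:78069302-78083913 (GRCm38, plus strand). The 250 bases upstream of its RefSeq start (chr10:78069118-78069367, plus strand) are shown because *Icosl* had the clearest response and NF-κB is the transcription factor the study is about. Capitals mark a match to the 10-base κB consensus, which was found on the minus strand at -111 to -102 relative to the start. The RefSeq start lies slightly downstream of the start in GENCODE.
Icosl promoter: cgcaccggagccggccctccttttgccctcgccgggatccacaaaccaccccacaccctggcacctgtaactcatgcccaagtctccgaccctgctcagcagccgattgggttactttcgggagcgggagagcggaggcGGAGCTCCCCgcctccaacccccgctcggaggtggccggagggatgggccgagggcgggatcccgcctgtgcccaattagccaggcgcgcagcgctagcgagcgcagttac
This window is GC-rich (68.8%) and holds 23 CG dinucleotides. The κB consensus, searched on both strands, occurred in 7.25% of 32851 mouse promoter windows of the same length, and a match in the sequence says nothing about binding in these cells. The nearest expressed gene upstream of *Icosl*, *Dnmt3l* at 5.68 kb in the deposited table, had values of 204, 291, 207 and 224 in the order untreated and IL-1α-treated +*GFP*, then untreated and IL-1α-treated +*MK2*. It was not called in any comparison, and its ratio with IL-1α in +*GFP* cells was 0.51. On the other side lies *Gatd3a* at 78.2 kb, with 891, 945, 822 and 781 in the same order.

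*Cd40*, the receptor for CD40L, was close to the detection limit. It was at 0 in untreated +*GFP* cells and in both +*MK2* libraries, and at 10 in IL-1α-treated +*GFP* cells. A count of 0 allows up to 3 counts per library, so that the IL-1α-treated +*GFP* library was at least 3.33-fold higher than each of the others when its 10 counts are taken as exact. With the counting error of both libraries the bound was weaker, with a lower interval end of 1.16 on the log2 scale. *Cd40* (chr2:165055627-165072948, GRCm38, plus strand) was below the minimum mean and was not counted among the calls. Its expressed neighbors *Ncoa5* and *Slc35c2* lay between 1438 and 2940 in all libraries, with log2 ratios from -0.23 to 0.20.

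Of the ligands of CD28 and CTLA-4, neither was called in any comparison. *Cd86* was nearly constant, with 1054 and 1043 in untreated and IL-1α-treated +*GFP* cells and 1052 and 978 in +*MK2* cells. Its ratio between the untreated lines was 0.0027 (-0.12 to 0.13) and its intervals included 0 in all 4 comparisons. *Cd80* was lowest in untreated +*GFP* cells, with 163, then 231 after IL-1α, and was 268 and 274 in +*MK2* cells. The log2 ratio between the untreated lines was -0.71 (-1.01 to -0.43), less than 2-fold, and therefore not called. After IL-1α it was -0.25 (-0.51 to 0.01). IL-1α gave 0.50 (0.21 to 0.80) in +*GFP* cells and 0.03 (-0.22 to 0.28) in +*MK2* cells, so that the distance between the lines was smaller after treatment. Per kb, *Cd86* exceeded *Cd80* 6.54-fold and 4.57-fold in untreated and IL-1α-treated +*GFP* cells, and 3.97-fold and 3.61-fold in +*MK2* cells.

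Both genes lie on chromosome 16, *Cd80* at chr16:38455561-38496335 (GRCm38, plus strand) and *Cd86* at chr16:36603869-36666081 (GRCm38, minus strand). The upstream window of *Cd80* (chr16:38458683-38458932) lies inside the GENCODE span, as its RefSeq start is downstream of the GENCODE start. It contained an AP-1 motif, TGANTCA, at -42 to -36 relative to the RefSeq start (readable on both strands). This motif was present in 6.75% of all windows. The *Cd80* window contained no match to the κB consensus. The neighbors of *Cd80* are close. *Adprh*, 2.86 kb away, had 1707, 1854, 1298 and 1167 in the order of libraries given above, and *Timmdc1*, 2.01 kb away, had 481, 546, 495 and 473. Their log2 ratios between the untreated lines were 0.39 and -0.04, compared with -0.71 for *Cd80*.

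*Cd83*, a marker of maturing dendritic cells that stabilizes MHC class II and CD86 at the surface, was the member with the largest difference between the lines. It was at 0 in both +*GFP* libraries and at 26 and 22 in untreated and IL-1α-treated +*MK2* cells. The lines did not overlap, with or without IL-1α. *Cd83* passed the minimum mean only through +*MK2* cells, and the share of all genes without overlap between the lines was not determined. Against a floor of 3 counts per library, and with 26 and 22 taken as exact, *Cd83* was at least 8.67-fold lower in untreated and at least 7.33-fold lower in IL-1α-treated +*GFP* cells. With the counting error of both libraries the bounds were weaker, as the intervals ended at -2.71 and -2.45 on the log2 scale. A response to IL-1α in +*MK2* cells was not detectable at this depth (log2 ratio -0.23, -1.13 to 0.63). *Cd83* is located on chr13:43784775-43803132 (GRCm38, plus strand). Its nearest expressed neighbors are far away. *Mcur1*, 225 kb before it, had a ratio of 0.08 between the untreated lines, and *Jarid2*, 926 kb behind it, had -0.31.

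As *Cd83* is a dendritic cell marker, the dendritic cell list was examined beside it. Of 9 genes only *Zbtb46* and *Itgax* were abundant enough to be tested. *Zbtb46* had 23 and 18 in +*GFP* cells against 104 and 115 in +*MK2* cells and was called lower in both comparisons (log2 -2.13 and -2.61), as *Cd83* was. *Itgax* was called higher (1.51 and 1.40), with 53 and 36 against 18 and 13. The sum over the list was 83 and 61 in +*GFP* cells and 135 and 139 in +*MK2* cells. *Zbtb46* made up most of the sum in +*MK2* cells, so its direction is that of *Zbtb46* and not a trend of the list. *Kit* was at 0 throughout like *Flt3*, *Ccr7* and *Cd209a*. Among the macrophage markers, *Mertk* was called lower in both comparisons of the lines, with 421 and 364 against 1093 and 1168. *Mpeg1* was called higher, with 3305 and 3406 against 1560 and 1613. The part of these markers in the *Cd83* values was not tested.

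*Cd274*, which encodes PD-L1, had the second highest IL-1α-dependent difference among the tested members. The normalized counts were 183 and 331 in untreated and IL-1α-treated +*GFP* cells and 173 and 151 in +*MK2* cells. Only the IL-1α-treated +*GFP* library stood apart. After IL-1α *Cd274* was 2.18-fold higher in +*GFP* than in +*MK2* cells (log2 1.13, 0.85 to 1.42), and this was called. The untreated lines gave 0.08 (-0.23 to 0.39). Within +*GFP* cells IL-1α gave a 1.80-fold higher value (0.85, 0.59 to 1.12), just below the 2-fold required for a call. In +*MK2* cells the ratio was -0.20 (-0.52 to 0.13), and the responses differed by 1.05. *Cd274* was 437th of 12483 genes in the comparison of the lines after IL-1α, while *Icosl* was 91st.

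*Pdcd1lg2*, the neighboring gene for PD-L2, was low and not called in any comparison. It had 13 and 14 in untreated and IL-1α-treated +*GFP* cells and 20 and 16 in +*MK2* cells. All ratios lay between -0.58 and 0.10, and the intervals reached from -1.75 to 1.32. For IL-1α in +*GFP* cells the interval (-1.09 to 1.32) contains the ratio of *Cd274* in that comparison (0.85). Between the lines after IL-1α, it (-1.34 to 0.94) ends below the ratio of *Cd274* (1.13) but overlaps the interval of *Cd274* (0.85 to 1.42). Its gene overlaps *A930007I19Rik* on the opposite strand (31, 52, 26 and 40 in the order given above). The library kit preserves strand, but whether the counting used it is not given in the sources used here. *Cd274* and *Pdcd1lg2* are 22.8 kb apart in the table, at chr19:29367455-29388095 and chr19:29410919-29471161 (GRCm38, both plus strand). Per kb, *Cd274* exceeded *Pdcd1lg2* 7.62-fold and 12.8-fold in untreated and IL-1α-treated +*GFP* cells and 4.68-fold and 5.11-fold in +*MK2* cells. On the other side of *Cd274*, *Plgrkt* begins 0.065 kb away and had 659, 662, 651 and 707, without a response to IL-1α in +*GFP* cells (0.0065).

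The upstream windows of the PD-1 ligand genes are printed to set this pair beside *Icosl*, with a match to the κB consensus in capitals. They cover chr19:29367188-29367437 for *Cd274* and chr19:29410669-29410918 for *Pdcd1lg2* (RefSeq, GRCm38.p6, plus strand).
Cd274 promoter: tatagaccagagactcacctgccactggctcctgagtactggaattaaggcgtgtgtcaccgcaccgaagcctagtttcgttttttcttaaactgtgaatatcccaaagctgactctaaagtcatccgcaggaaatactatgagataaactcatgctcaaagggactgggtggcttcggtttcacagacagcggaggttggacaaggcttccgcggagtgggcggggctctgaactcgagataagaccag
Pdcd1lg2 promoter: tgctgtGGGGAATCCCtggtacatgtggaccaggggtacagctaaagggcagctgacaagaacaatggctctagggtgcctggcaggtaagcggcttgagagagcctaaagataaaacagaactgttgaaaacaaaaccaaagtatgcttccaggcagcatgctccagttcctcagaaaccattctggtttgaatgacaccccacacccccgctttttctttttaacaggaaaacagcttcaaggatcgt
The *Pdcd1lg2* window, the gene without a called difference, had a match at -244 to -235, readable on both strands. The *Cd274* window, which has 50.4% GC and 11 CG dinucleotides, had none. Neither had the overlapping windows of *Cd47*, which lie inside its GENCODE span. No match says only that these letters are absent from a window. Windows were found for 5 of 10 members in the promoter set used.

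MK2 is known to control the stability and translation of mRNAs with AU-rich elements through the protein tristetraprolin. The 3′ UTRs of the longest protein-coding transcript (GENCODE M21) were therefore searched for the sequence TATTTAT on the sense strand. It occurred in 29.6% of 10687 tested genes with a 3′ UTR. *Cd274* had 4 of these heptamers and 11 ATTTA pentamers in 2683 bases, whereas the median gene had 2 pentamers in 1133 bases, and a pentamer inside a heptamer counts in both. *Cd40*, *Pdcd1lg2* and *Cd47* had 1 heptamer each, and the other 6 members had none. *Icosl*, with the larger response, had no heptamer and 1 pentamer in 1622 bases. The heptamers with 11 bases on either side are shown for *Cd274*, numbered by their position in its 3′ UTR, and for *Cd40*, chosen after their values were seen.
Cd274, position 307: taagtgccttcTATTTATtttgagtctgt
Cd274, position 1801: taatgtatggaTATTTATgctgcttccag
Cd274, position 2530: gcaacacattcTATTTATtcattttattt
Cd40, position 353: aaatctgtaatTATTTATacaatgacatc
The fourth *Cd274* heptamer, at position 2673, lies close to the end of the transcript. These matches describe the sequence, and mRNA stability was not measured in these libraries.

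The inhibitory receptor gene *Cd200r1* was lower in +*GFP* cells, but by less than 2-fold. It had 522 and 407 in untreated and IL-1α-treated +*GFP* cells and 775 and 757 in +*MK2* cells. All values of the +*GFP* line were below those of the +*MK2* line, but the share of all genes separated in this way was not determined. The log2 ratios between the lines were -0.57 (-0.73 to -0.41) in untreated and -0.89 (-1.07 to -0.72) in IL-1α-treated cells. IL-1α gave -0.36 (-0.55 to -0.17) in +*GFP* cells and -0.03 (-0.18 to 0.11) in +*MK2* cells, the response thus differing by -0.32. *Cd200r1* was the only tested member whose interval lay below 0 after IL-1α in +*GFP* cells.

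*Cd200r1* (chr16:44765736-44794978, GRCm38, plus strand) belongs to a cluster of related genes that can share reads. Its relative *Cd200r2* was called lower in +*GFP* cells, with 60 and 54 against 257 and 254 (log2 -2.08 and -2.21). *Cd200r4*, which encodes an activating relative, was far more abundant, with 2351 and 2302 against 1964 and 1948, and *Cd200r3* had 2 and 3 against 11 and 13. Summed over the 4 genes, the values were 2935 and 2766 in +*GFP* cells and 3007 and 2972 in +*MK2* cells, a log2 ratio of -0.03 (-0.11 to 0.04) in untreated and -0.10 (-0.18 to -0.03) in treated cells. The lower counts of *Cd200r1* and *Cd200r2* thus stood beside a higher count of *Cd200r4*, and how reads were divided between these genes was not tested. The nearest expressed gene on the other side, *Gtpbp8*, had 516, 440, 450 and 403.

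*Sirpa*, which encodes the receptor SIRPα, and *Cd47*, which encodes its ligand, varied little, by less than 1.5-fold. *Sirpa* had 17749 and 19181 in untreated and IL-1α-treated +*GFP* cells and 18333 and 19158 in +*MK2* cells. Its intervals are narrow owing to the high counts. The ratio between the lines was -0.05 (-0.08 to -0.02) in untreated and 0.0017 (-0.03 to 0.03) in IL-1α-treated cells, and IL-1α gave 0.11 (0.08 to 0.14) in +*GFP* and 0.06 (0.03 to 0.09) in +*MK2* cells. When the libraries were rescaled by *Gapdh*, the ratio between the lines after IL-1α was -0.10. *Cd47* had 1382 and 1390 in +*GFP* cells and 1181 and 1220 in +*MK2* cells, a ratio of 0.23 (0.11 to 0.34) and 0.19 (0.08 to 0.30) between the lines. Its IL-1α ratios were 0.01 (-0.10 to 0.12) and 0.05 (-0.07 to 0.16). Per kb, *Sirpa* exceeded *Cd47* between 16.4-fold and 20.1-fold.

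*Sirpa* lies at chr2:129592835-129632228 and *Cd47* at chr16:49800533-49915010 (GRCm38, both plus strand). Next to *Sirpa*, *F830045P16Rik* was called lower in +*GFP* cells, with 39 and 41 against 112 and 117 (log2 -1.50 and -1.49), while *Sirpa* itself was almost level. The signaling partners and relatives of SIRPα and CD200R1 were 17 genes, of which 15 were tested. In this list 0 genes were called higher and 1 lower between the untreated lines (*Cd200r2*), and 2 were called lower after IL-1α (*Cd200r2* and *Sirpb1c*, with 41 against 87), where 5.01 and 5.2% of all tested genes were called lower. No gene of this list was called after IL-1α within a line. *Ptpn6*, the phosphatase SHP-1 that acts downstream of SIRPα, had 6467 and 6803 in +*GFP* and 5659 and 5113 in +*MK2* cells.

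For the members that varied by at least 1 on the log2 scale and passed the minimum mean, the 3 genes with the most similar profile were determined among the 10585 genes whose mean reached 50, as the Euclidean distance of the centered log2 values over the 4 libraries. With 4 values, a short distance is a description only. For *Icosl* these were *Icam1* (distance 0.26), which encodes an adhesion molecule of antigen-presenting cells, *Tlr2* (0.29) and *Nod2* (0.30), receptors for bacterial products. *Icam1* had 1421 and 8329 in untreated and IL-1α-treated +*GFP* cells and 1392 and 1527 in +*MK2* cells, and *Tlr2* had 1630, 9796, 1187 and 1651. *Nod2* had 111, 732, 78 and 106. For *Cd274* they were *Ripk2* (0.12), the kinase downstream of NOD2, *Zbtb21* (0.14) and *Orai2* (0.14). *Ripk2* had 454 and 851 against 415 and 407. For *Cd83* they were *Mreg* (0.24), *Cebpa* (0.30), a transcription factor of myeloid cells, and *Frmpd1* (0.32). As *Cd83* was at 0 in +*GFP* cells, its profile depends on the pseudocount. Its ratio between the untreated lines ran from -5.73 to -2.63 over the pseudocounts tried, and the nearest genes were determined only with a pseudocount of 1. These nearest genes reached the mean of 50 only through +*MK2* cells. *Cebpa* had 19 and 20 in +*GFP* cells and 431 and 415 in +*MK2* cells, and *Mreg* had 20 and 24 against 598 and 592.

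**Figure D3:**
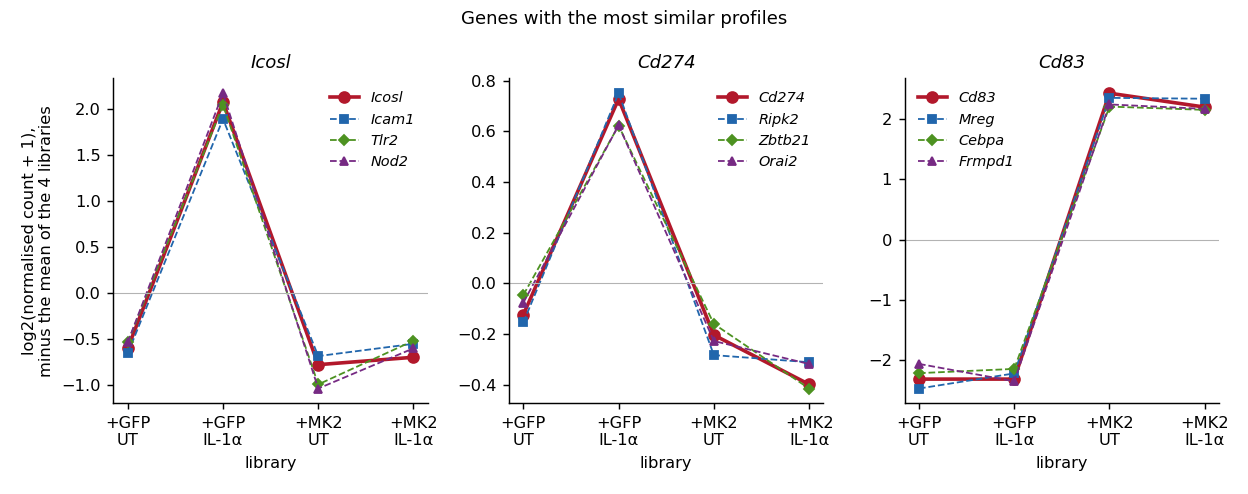
Profiles of *Icosl*, *Cd274* and *Cd83* (red) and of the 3 genes nearest to each, as log2 of the normalized count plus 1 minus the mean of the 4 libraries, which are ordered along the horizontal axis and joined by lines only to guide the eye. The *Icosl* and *Cd274* panels peak in the IL-1α-treated +*GFP* library, and the *Cd83* panel separates the lines irrespective of IL-1α. The vertical axes differ between the panels.

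Further ligands of the same families were examined from a list of 20 genes, of which 11 could be tested. Between the untreated lines 1 was called higher and 0 lower, after IL-1α 2 were called higher and 0 lower, and IL-1α raised 1 in +*GFP* cells. The shares called higher over all tested genes in these comparisons were 3.28, 3.92 and 1.79%, which also hold for the lists that follow. *Tnfsf9*, the ligand of the costimulatory receptor 4-1BB, had 242 and 2983 in untreated and IL-1α-treated +*GFP* cells and 264 and 270 in +*MK2* cells. Like *Icosl* it stood apart in a single library, with a log2 ratio of 3.62 (3.43 to 3.82) for IL-1α in +*GFP* cells and 0.03 (-0.22 to 0.28) in +*MK2* cells. *Ceacam1*, an inhibitory adhesion molecule, was called higher in +*GFP* cells in both comparisons (1.32 and 1.15), with 445 and 373 against 178 and 168. The median log2 ratio of the list after IL-1α in +*GFP* cells was -0.04.

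CD40 signals through TRAF adaptors to NF-κB, and the 15 genes of this list were all tested. *Cd40* itself had 10 in IL-1α-treated +*GFP* cells and 0 in the other libraries, and *Cd40lg* was at 0 throughout. The list is named after this pathway, and whether CD40 signaled in these cells was not tested. Between the untreated lines 1 was called higher in +*GFP* cells (*Traf1*) and 0 lower. After IL-1α 5 were called higher, against 3.92% of all tested genes, and 0 lower, and IL-1α raised 5 in +*GFP* cells, against 1.79%, and 0 in +*MK2* cells. In both comparisons these were *Traf1*, *Relb*, *Nfkb2*, *Birc3* and *Rel*. *Traf1*, which passed the minimum mean only through its values in +*GFP* cells, had 15 and 341 in this line and 4 and 10 in +*MK2* cells, and *Relb* had 99 and 706 against 86 and 131. *Nfkb2* had 541 and 1787 against 541 and 545, *Birc3* had 573 and 1546 against 534 and 466, and *Rel* had 1016 and 2338 against 780 and 900. The median response to IL-1α was 0.36 in +*GFP* and 0.01 in +*MK2* cells, and 13 of 15 genes had the higher log2 ratio in +*GFP* cells. The list holds genes that the study itself examined in these libraries and is not independent evidence of its direction.

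**Figure D4:**
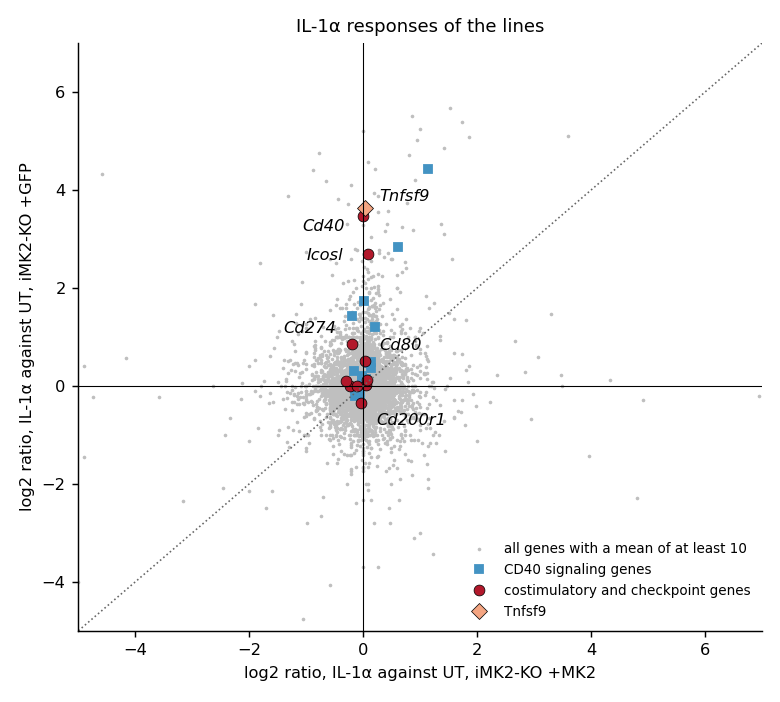
IL-1α responses as log2 ratios, in +*MK2* cells on the horizontal and in +*GFP* cells on the vertical axis, for the 10 members (red), the CD40 signaling genes (blue), *Tnfsf9* (diamond) and all genes with a mean of at least 10 (grey, 19 of which lie outside the range shown). Equal responses would lie on the dotted diagonal. *Tnfsf9*, *Icosl* and *Cd274* lie near 0 horizontally and at 3.62, 2.68 and 0.85 vertically, and *Cd40* rests on 10 normalized counts.

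Genes known to regulate PD-L1, CD80 and CD86 were 13, of which 11 were tested. In this list 1 was called higher between the untreated lines (*Il10ra*), 2 after IL-1α (*Il10ra* and *Irf1*), and IL-1α raised 1 in +*GFP* cells (*Irf1*). *Irf1*, a transcription factor that induces PD-L1 downstream of interferon, had 324 and 1885 in untreated and IL-1α-treated +*GFP* cells and 343 and 338 in +*MK2* cells, high in the same library as *Cd274*. *Il10ra* had 431 and 671 against 96 and 106 (log2 2.15 and 2.65). *Cmtm6*, which keeps PD-L1 protein at the surface, was level with 955 to 1029, and *Jak2* had 935 and 937 against 474 and 509, just below 2-fold (0.98 and 0.88).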

How the data were processed

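Poly(A)-enriched, directional libraries are named in the labels, whereas the study's methods describe ribosomal depletion. The authors deposited 1 table with a score per gene and library, DESeq2 normalized counts rounded to whole numbers. The sample columns are named after salmon files, and the authors' processing notes name DESeq2 and GRCm38. The comparisons had been planned for counts or normalized values, and no count model was applied. The values were used as deposited, with a pseudocount of 1, a minimum mean of 10 and a 2-fold threshold (Python 3.11.15, numpy 2.4.6, pandas 2.3.3, scipy 1.17.1), and the calculation was tested on simulated data. Read numbers behind the values are not given in the sources used here. Only 2.88% of 52080 genes matched by ID have the same start in GENCODE M21 as in the table, while 98.9% have the same span, so coordinates are from GENCODE M21 (GRCm38), and distances between genes are from the table. Exon lengths are from GENCODE M21. The members and 12 further lists (141 genes, 3 under a newer symbol) were chosen with earlier results of these data known. Named were all members, list genes called in any comparison, the 3 most similar profiles, and expressed neighbors, and beside these some list genes that were not called, chosen after their values were seen. Alternatives were other pseudocounts (0.5 and 5), no minimum mean or one of 50, 1.5-fold, rescaling by total, TMM or *Gapdh*, and 0.8 reads per normalized count.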

Additional observations from a re-analysis of the deposited data

How the results depend on the processing

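No paired analysis was possible because each condition has 1 library, and no library could be left out. Between the lines, the number of members called lower was 1 in untreated and 1 in IL-1α-treated cells, 2 and 2 at a threshold of 1.5-fold, where 8.77 and 9.29% of all genes were called lower, and 0 and 0 at a minimum mean of 50 (3.22 and 3.49%), which removes *Cd83*. After IL-1α in +*GFP* cells, 1 member was called higher, 2 at 1.5-fold (3.19% of all genes), and 2 without a minimum mean (1.44%), when *Cd40* enters. *Cd40* likewise brings the members called higher between the lines after IL-1α from 2 to 3. Of 200 log2 ratios of members under the alternatives, 192 stayed within their counting interval and 8 moved. The 192 include ratios of *Cd40* and *Cd83* with both libraries at 0, whose intervals have no ends, so these could not move. Of the 10 ratios that changed sign (*Cd86*, *Sirpa* and *Cd47*) none was called. With a pseudocount of 5, *Cd83* gave -2.63 in untreated and -2.43 in IL-1α-treated cells, still called. *Icosl* stayed between 2.63 and 2.68 for IL-1α in +*GFP* cells, and *Cd274* between 1.03 and 1.13 between the lines after IL-1α. Depth limits *Cd40*, *Cd83* and *Pdcd1lg2*, and differences between cultures cannot be estimated for any gene.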

Other observations

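Antigen presentation acts together with costimulation. Of the 10 MHC class I genes, all tested, 1 was called higher in +*GFP* cells both before and after IL-1α, where 3.28 and 3.92% of all tested genes were. This was *H2-K1*, a classical class I heavy chain, with 3193 and 7617 in untreated and IL-1α-treated +*GFP* cells against 698 and 759 in +*MK2* cells (log2 2.19 and 3.33), and IL-1α raised it in +*GFP* cells (1.25, 1.19 to 1.31). Other class I genes were not called. Their log2 ratios between the lines before and after IL-1α were 0.49 and 0.80 for *H2-D1*, 0.77 and 0.72 for *Erap1*, and 0.63 and 0.58 for *Psmb9*. They were 0.60 and 0.57 for *Nlrc5*, 0.31 and 0.41 for *Tapbp*, and 0.18 and 0.28 for *B2m*. *Tap1* gave -0.21 and 0.05, *Tap2* -0.80 and -0.88, and *Psmb8* -0.60 and -0.53. The medians of the list were 0.40 and 0.49, beside 0.021 and 0.031 for all tested genes. Of the 11 MHC class II genes, 5 were tested and 2 were called higher in both comparisons. *Cd74*, the invariant chain, had 6809 and 8187 against 2753 and 3047, and *Ciita*, the class II transactivator, had 30 and 36 against 4 and 1 and passed the minimum mean only through the line where it is high. *H2-DMb1* had 241 and 203 against 227 and 238. The class II chains *H2-Aa*, *H2-Ab1* and *H2-Eb1* were nevertheless at 3 or less in all libraries, and no class II gene was called after IL-1α within a line.

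Other inhibitory receptors of myeloid cells were 12 genes, of which 10 were tested. Between the untreated lines 1 was called higher in +*GFP* cells, *Pirb*, with 163 and 194 in +*GFP* against 68 and 86 in +*MK2* cells. After IL-1α 4 were called higher and 1 lower, against 3.92 and 5.2% of all tested genes, and IL-1α raised 2 in +*GFP* cells, against 1.79%. *Lilrb4a* had 9005 and 24371 against 4970 and 5350, and *Lilrb4b* had 9009 and 18986 against 6401 and 6850, and how reads were divided between these near-identical genes was not tested. *Fcgr2b*, the inhibitory Fc receptor, had 916 and 1292 against 513 and 526, and *Clec4a2* was called lower after IL-1α, with 101 and 51 against 135 and 150. Of the macrophage markers, *Cd14* was raised by IL-1α in +*GFP* cells (3652 to 8072), with 1962 and 2250 in +*MK2* cells.

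Receptors typical of T cells were read in these macrophages. *Cd28*, the receptor of CD80 and CD86, had 5248 and 4407 in untreated and IL-1α-treated +*GFP* cells and 4846 and 5170 in +*MK2* cells, above *Cd80* and *Cd86* in every library. The 8 lymphocyte markers, *Cd3e* and *Cd3g* among them, summed to at most 9. Of the 10 counter-receptor genes, 3 were tested. *Icos*, the receptor of ICOSL, was called lower after IL-1α in +*GFP* than in +*MK2* cells, against 5.2% of all tested genes. It had 39 and 23 against 49 and 85 (log2 -1.84 after IL-1α). *Tnfrsf4* had 19 and 6 against 6 and 11, at counts close to the minimum. It was called higher between the untreated lines, against 3.28% of all tested genes. With IL-1α in +*GFP* cells it was called lower, against 1.11%. Both calls rest on the untreated +*GFP* library, and *Tnfrsf4* passed the minimum mean only through this library.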
